A study of Micropterus salmoides with 18 samples.

Results

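The genes described here are mainly those of enzymes that dispose of reactive oxygen and keep protein thiols reduced: superoxide dismutases, catalase, glutathione peroxidases, peroxiredoxins, thioredoxin and its partners, glutaredoxins, the glutathione synthesis enzymes, glutathione S-transferases, methionine sulfoxide reductases, haem oxygenase and quinone reductase. They were taken by symbol from the deposited expression table, which lists 43106 entries, and 52 named genes matched. The match also took in genes of other known roles, such as txnl4b, a relative of a spliceosome component, and the inhibitor txnipa. All 52 are called redox genes below for brevity. Entries that carry only a number in place of a symbol were not searched for further family members. Levels are FPKM, fragments per kilobase of transcript scaled by the mapped fragments, and were followed in the gonads of a farmed freshwater fish, the largemouth bass (Micropterus salmoides).

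In the study, 216 fish were kept as 18 in each of 12 tanks, with the sexes apart and 3 tanks in each group. One set of tanks was held at 20 °C, and the other was warmed to 28 °C in 2 h and sampled 28 days later. The prefix IC marks gonads taken on day 0, NC those taken after 28 days at 20 °C, and HT those taken after 28 days at 28 °C, each with the letter F or M for the labelled sex. Each of the 6 groups holds 3 libraries, made from 0.4 ug of total RNA of whole gonad; no strain, age or allele is given, and no label ties the 3 to separate fish or tanks. P-values thus reflect only how far these libraries scatter, which may be technical.

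The letters and the gonad genes disagreed in the IC and HT groups and agreed in the NC groups. The summed level of 7 oocyte genes lay between 2236 and 3392 FPKM in the 9 libraries with the labels HT-M, NC-F or IC-M, and between 13.4 and 53.8 FPKM in the 9 with the labels HT-F, NC-M or IC-F. The summed level of 9 sperm and flagellum genes lay between 7.91 and 13.0 FPKM in the first set and between 969 and 3712 FPKM in the second. The first set is called ovary-type below and the second testis-type, every group is named as labelled, and comparisons over time or temperature were made within a type. Comparisons with an NC group therefore set libraries of opposite letters against each other (HT-M against NC-F, HT-F against NC-M). Those of HT with IC groups compare libraries of the same letter.

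Several libraries stood apart within their group. IC-M 3 was the lowest of its group for 36 of the 47 redox genes fitted in ovary-type libraries, against 48.6% of all 17026 genes fitted, and HT-M 2 was the lowest of its group for 35 of 47, against 50.2% of all genes. NC-M 3 carried a summed level of 6 meiosis genes of 1290 FPKM, against 356 and 546 FPKM in NC-M 1 and NC-M 2. For many results that rest on these libraries, counts or calls without them are also given.

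Superoxide dismutases turn superoxide into hydrogen peroxide, which catalase, the glutathione peroxidases and the peroxiredoxins then remove. Glutathione peroxidases draw their electrons from glutathione, which glutathione reductase renews, and peroxiredoxins draw theirs from thioredoxin, which thioredoxin reductase renews, in both cases at the expense of NADPH. Glutaredoxins and methionine sulfoxide reductases repair oxidised protein residues, glutathione S-transferases couple glutathione to reactive compounds, and many of these genes are known targets of the stress-responsive factor NRF2. In gonads this machinery is known for guarding the lipids of sperm membranes and the long-lived mitochondria of the egg.

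**Figure D1:**
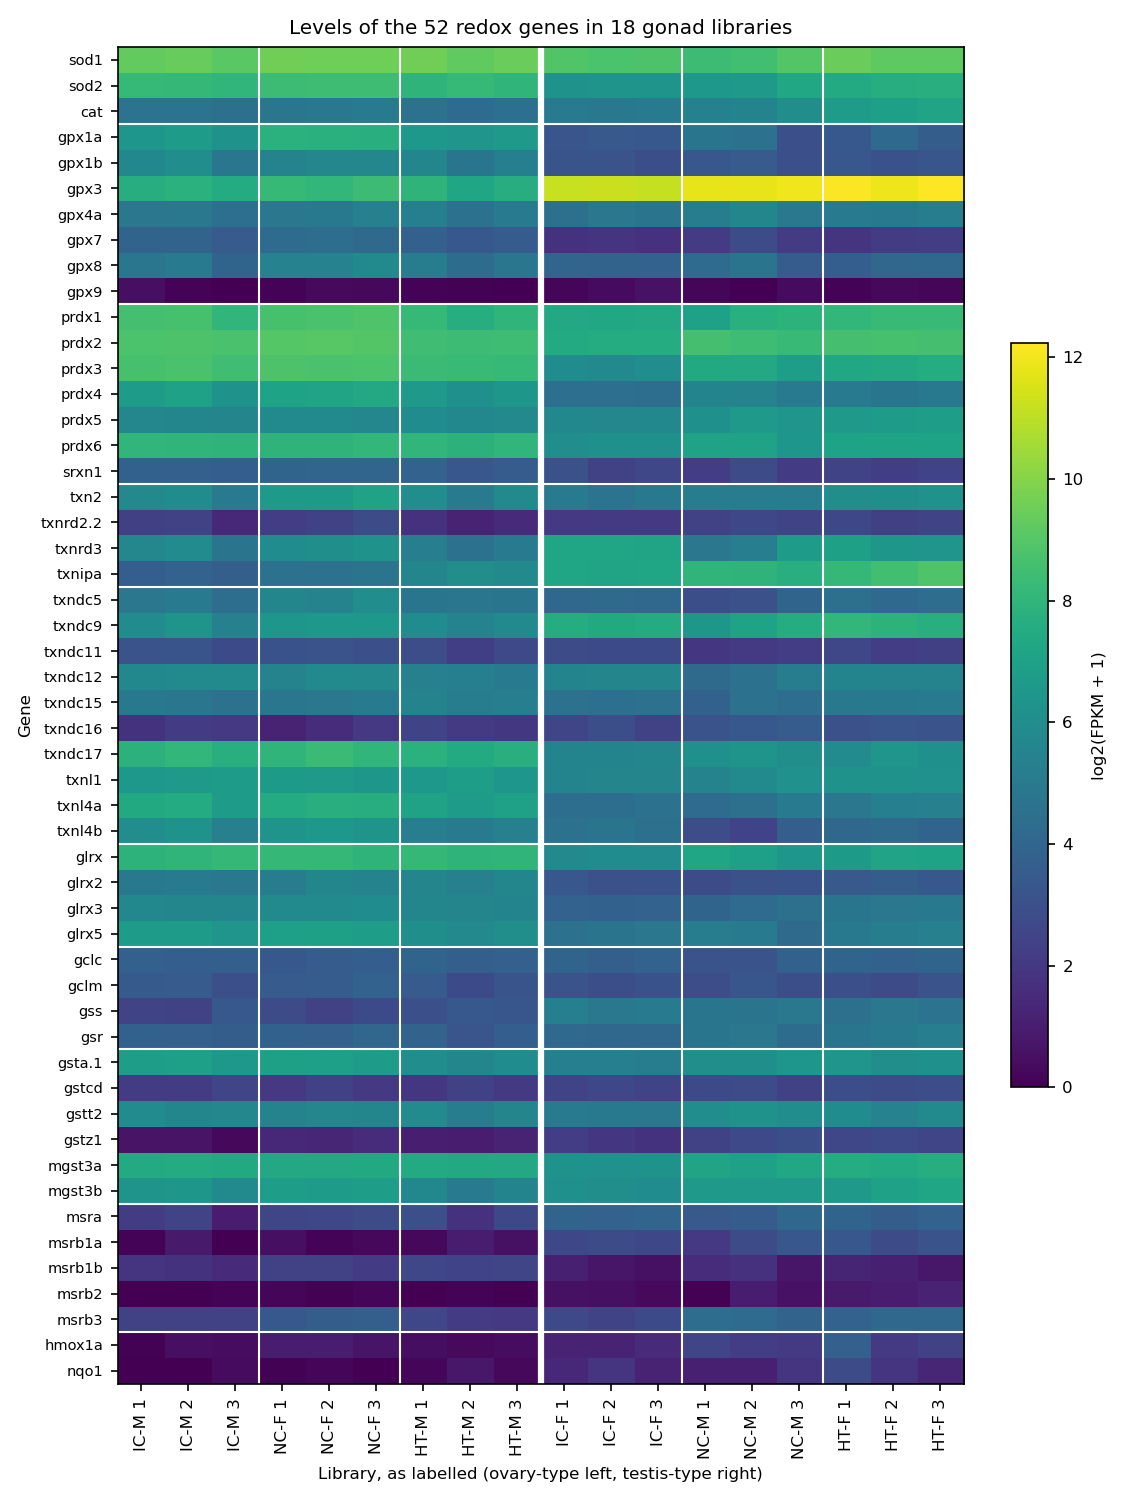
Level of each of the 52 redox genes (rows, grouped by subfamily) in each of the 18 libraries (columns, ovary-type left and testis-type right), as log2(FPKM + 1) in colour. gpx3 is the brightest gene in testis-type libraries, and nqo1, gpx9 and msrb2 are near 0 in ovary-type libraries.

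Both types were rich in these transcripts, but different genes led them. The cytosolic copper-zinc superoxide dismutase sod1 ranked first by mean level in ovary-type libraries, at 542.48 to 769.71 FPKM with a median of 692 FPKM. It was followed by the peroxiredoxins prdx2 (336.29 to 535.61 FPKM), prdx3 (290.74 to 457.14 FPKM) and prdx1 (192.92 to 459.51 FPKM), whose ranges overlapped. In testis-type libraries the secreted glutathione peroxidase gpx3 came first at 2307.52 to 4812.62 FPKM, above sod1 at 337.23 to 681.38 FPKM and prdx2 at 177.4 to 410.65 FPKM. The thioredoxin-interacting protein gene txnipa came next there, at 142.31 to 463.63 FPKM. At the low end, gpx9 did not exceed 0.52 FPKM and msrb2, a mitochondrial methionine sulfoxide reductase, did not exceed 1.36 FPKM in any library; both failed the filter of 1 FPKM in at least 3 of the libraries fitted. In the fit of all 18 libraries 50 of the 52 genes were tested, and in the fit of the ovary-type libraries 47, since msrb1a, hmox1a and nqo1 did not pass there either.

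The types were compared at each of the 3 sampling points with limma on log2(FPKM + 1), calling genes at a Benjamini-Hochberg adjusted p under 0.05 over all genes fitted. On day 0, 13 redox genes were higher in testis-type IC-F than in ovary-type IC-M and 25 were lower, of 50, where 49.3% of all 25184 genes fitted were called higher and 28.6% lower (10 and 32 redox genes after median-of-ratios scaling). At 20 °C, 15 were higher in NC-M than in NC-F and 29 lower (48.9% and 27.9% of all genes; 11 and 31 redox genes after that scaling). At 28 °C, 18 were higher in HT-F than in HT-M and 18 lower (47.7% and 26.3% of all genes, and 17 and 24 redox genes after that scaling). Of the 25184 genes, 11405, 11321 and 10404 were higher and 8237, 8105 and 7831 lower after that scaling. The median redox gene stood at −0.51, −0.65 and 0.11 on the log2 scale in these 3 comparisons, beside 0.57, 0.57 and 0.52 for all genes fitted. After median-of-ratios scaling the median at 28 °C turned to −0.23, and the same scaling moved the median of all genes by −0.18, −0.19 and −0.22. The 25184 genes include some that passed the filter through 1 gonad type only, so the filter set their direction. Fitted alone, 22791 genes passed in testis-type and 17026 in ovary-type libraries. Among redox genes, msrb1a, hmox1a and nqo1 were of this kind and were called higher each time. How far the shares and medians of all genes rest on such genes was not tested.

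At all 3 points, 17 genes were called higher in ovary-type libraries and 11 higher in testis-type libraries, each with no overlap between the compared libraries. The other 22 were not called at 1 point or more, and none was called in opposite directions. At single points, 26.3% to 28.6% of all genes fitted were higher in ovary-type and 47.7% to 49.3% in testis-type libraries. The shares of all genes called, or not overlapping, at all 3 points were not computed. The ovary-type set comprised all 4 glutaredoxins (glrx, glrx2, glrx3 and glrx5), the peroxidases gpx1a, gpx1b and gpx7, the peroxiredoxins prdx3, prdx4 and prdx6 with their repair enzyme srxn1, sod2, msrb1b and 4 thioredoxin-like genes (txndc17, txnl1, txnl4a and txnl4b). The testis-type set comprised gpx3, cat, the glutathione synthetase gss, the glutathione reductase gsr, gstz1, msra, txndc16 and txnipa, together with hmox1a, msrb1a and nqo1. The last 3 passed the filter on low values through testis-type libraries alone, so their direction was set by that filter.

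Across time and temperature within a type, redox genes were called most often in HT-M against NC-F, at 55.3%, where calls among all genes were also most frequent. NC-M against IC-F and HT-F against IC-F each reached 46.0%, beside smaller shares of all genes. In HT-M against NC-F the redox share exceeded that of all genes only among lower genes. HT-M was lower than NC-F for 24 of the 47 genes and higher for 2, where 20.0% of the 17026 genes fitted were lower and 28.7% higher. Of all genes called, 58.9% were higher, or 48.2% after median-of-ratios scaling. That scaling gave 27 redox genes lower and 2 higher. All genes went from 3413 lower and 4886 higher to 4426 and 4121 of 17026. The median redox gene differed by −0.45 on the log2 scale and the median of all genes by 0.07. The calls of 19 of these 26 genes held whichever single library was left out. Without HT-M 2, 2 redox genes were higher and 19 lower, beside 3963 and 2533 of the 16430 genes fitted. NC-F was higher than IC-M for 13 of 47 genes and lower for none (11.9% and 13.6% of all genes). At an unadjusted limma p under 0.05 these counts were 21 and 0. Shares of all genes at an unadjusted p were not computed, here or below, so such counts have no background. Only 5 of those 13 calls held without any 1 library. Without IC-M 3, NC-F 1, NC-F 2 and NC-F 3, 7, 6, 5 and 6 genes were called, and 8 without IC-M 1. Fewer of all genes were called in each of these fits too. HT-M set directly against day 0 was higher than IC-M for 5 of 47 genes and lower for 6 (16.1% and 8.44% of all genes). After median-of-ratios scaling it was higher for 5 and lower for 11. All genes went from 2742 higher and 1437 lower to 2217 and 2482 of 17026. The higher share of all called genes went from 65.6% to 47.2%. Without IC-M 3, 6 redox genes were higher and 13 lower, beside 3284 and 2425 of the 16766 genes fitted. Without HT-M 3, 2 were higher and 5 lower, beside 1614 and 952 of 16440. With all libraries and without that scaling, the 6 lower genes were prdx2, prdx3, txndc12, glrx5, gsta.1 and mgst3b. The other genes lower in HT-M than in NC-F were not called against day 0. Each pair of these comparisons shares the 3 libraries of 1 group.

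**Figure D2:**
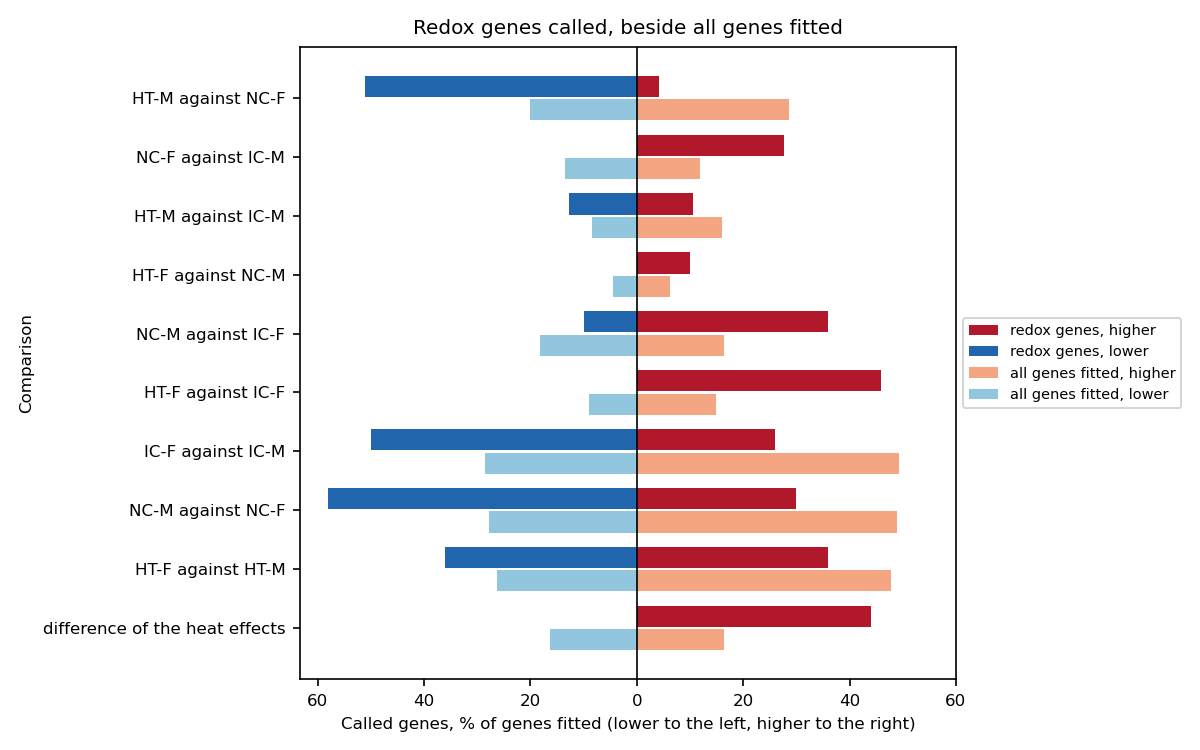
Share of redox genes called higher (right) or lower (left) in each of the 10 comparisons, beside the share of all genes fitted, in % of the genes fitted. The bar of genes lower in HT-M than in NC-F is 51.1% for redox genes and 20.0% for all genes.

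On the testis side, HT-F was higher than NC-M for 5 of 50 redox genes and lower for none, where 6.17% of the 22791 genes fitted were higher and 4.50% lower. At an unadjusted limma p under 0.05 the counts were 16 and 1, with no share of all genes at that threshold. Heat in testis-type gonads thus gave a share of 10.0% of redox genes, close to the background, and the count turned on single libraries. Without NC-M 3, 18 were higher and 3 lower, beside 6400 and 4293 of the 22407 genes then fitted. Without NC-M 1, NC-M 2 or HT-F 1, 2, 1 and 3 redox genes were called, and fewer of all genes too. Without HT-F 2 or HT-F 3 no redox gene was called. Of all genes, 24 and 22 were then higher and 47 and 40 lower. At an unadjusted limma p under 0.05, 13 redox genes were higher and 0 lower in both cases. NC-M was higher than IC-F for 18 of 50 genes and lower for 5 (16.4% and 18.1% of all genes). After median-of-ratios scaling it was higher for 13 and lower for 7. All genes went from 3736 higher and 4133 lower to 2803 and 4874 of 22791. The higher share of all called genes went from 47.5% to 36.5%. Unscaled and without IC-F 1, IC-F 2, IC-F 3 or NC-M 2, 10, 11, 10 and 11 redox genes were called, and fewer of all genes too. Leaving out NC-M 3 gave 24 higher and 9 lower, beside 6155 and 5994 of the 22407 genes fitted. HT-F was higher than IC-F for 23 of 50 and lower for none (14.8% and 9.04% of all genes), or 27 and 2 at an unadjusted limma p under 0.05. After median-of-ratios scaling the called counts were 18 and 1. All genes went from 3377 higher and 2061 lower to 2277 and 2630 of 22791. The higher share of all called genes went from 62.1% to 46.4%. The median redox gene of HT-F against IC-F differed by 0.48 on the log2 scale, beside 0.10 for all genes. Without IC-F 1, IC-F 2, IC-F 3 or HT-F 3, 15, 13, 13 and 13 were called, and fewer of all genes too. These 3 comparisons share groups in the same way as the ovary-type ones.

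The difference between the heat effects was tested in its own contrast, (HT-F minus NC-M) minus (HT-M minus NC-F). It was above 0 for 22 of 50 redox genes and below 0 for none, where 16.4% of the 25184 genes fitted were above and 16.3% below. At an unadjusted limma p under 0.05 the counts were 25 and 3, with no share of all genes at that threshold. The median redox gene stood at 0.50 on the log2 scale and the median of all genes at −0.01, and 19 of the 22 calls held without any 1 library.

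**Figure D3:**
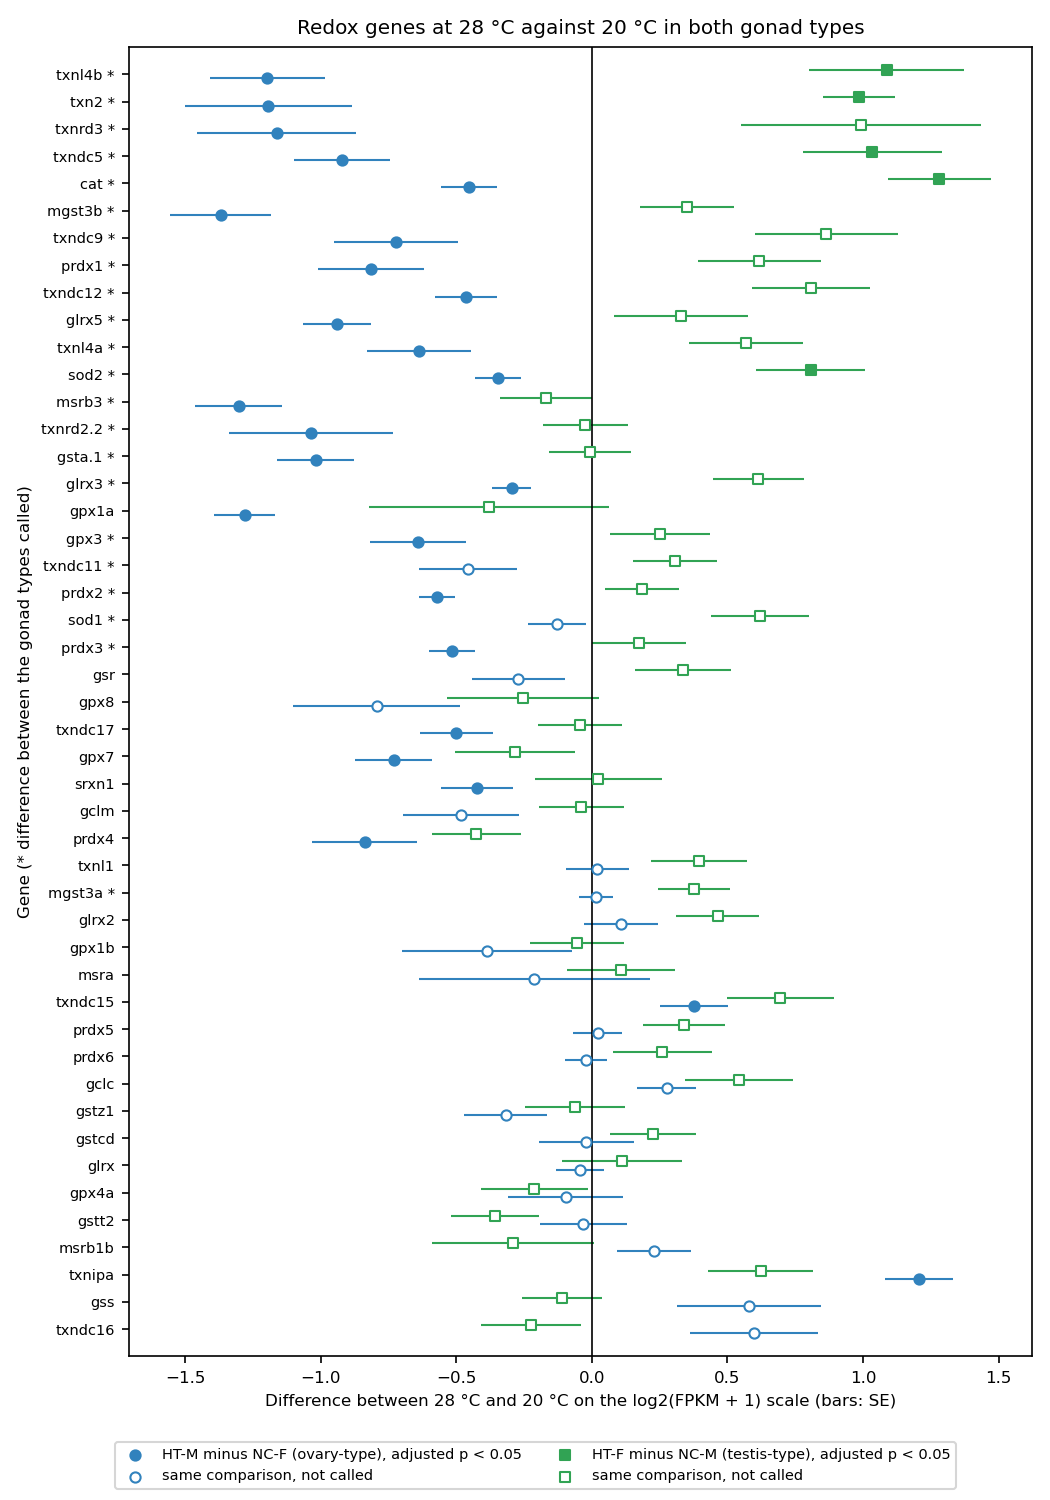
Difference between 28 °C and 20 °C (log2(FPKM + 1) scale, bars are SE) in ovary-type libraries (HT-M minus NC-F, circles) and testis-type libraries (HT-F minus NC-M, squares) for each redox gene tested in both; filled symbols passed limma's adjusted p of 0.05 and an asterisk marks genes whose heat effects differed between the types. Most circles lie left of 0, and txnipa and txndc15 are the filled circles to the right.

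Summed levels of marker genes of other cells differed between the temperatures in ovary-type libraries. From NC-F to HT-M the summed level of 6 endothelial genes went from 7.09 to 8.13 FPKM to 25.2 to 29.6 FPKM, that of 5 red blood cell genes from 31.9 to 96.3 FPKM to 273 to 300 FPKM, that of 4 macrophage genes from 28.6 to 37.7 FPKM to 73.0 to 107 FPKM, and that of 3 ovarian somatic genes from 44.2 to 69.8 FPKM to 89.2 to 97.0 FPKM. Some of these sums rest on few genes. In NC-F, 4 of the 6 endothelial, 2 of the 5 blood and 3 of the 4 macrophage genes stayed under 1 FPKM in every library. In HT-M this held for 1 blood gene and 2 macrophage genes. The 7 oocyte genes summed to 3022 to 3392 FPKM in NC-F and 2236 to 2575 FPKM in HT-M. In testis-type libraries the 9 sperm and flagellum genes summed to 3667 to 3712 FPKM in IC-F, 969 to 1749 FPKM in NC-M and 1516 to 1789 FPKM in HT-F. The summed level of 4 testis somatic genes was 127 to 134 FPKM in IC-F, 146 to 174 FPKM in NC-M and 205 to 291 FPKM in HT-F, 3 groups that do not overlap, as for cat and sod2 below. That of 6 meiosis genes was 664 to 755 FPKM in IC-F, 356 to 1290 FPKM in NC-M and 1143 to 1360 FPKM in HT-F, where NC-M overlapped both other groups. The part of these shifts in the values below was not tested, and in whole gonads fewer cells of a type and less RNA per cell cannot be told apart.

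Catalase and the mitochondrial superoxide dismutase were lower at 28 °C in ovary-type libraries, and higher at 28 °C in testis-type libraries by calls that single libraries ended. The peroxisomal catalase gene cat stood at 26.99, 29.06 and 30.45 FPKM in NC-F and 22.91, 18.29 and 21.33 FPKM in HT-M, without overlap (log2 −0.45 ± 0.10 SE, limma adjusted p = 0.00752). On day 0 it stood at 24.24, 23.99 and 21.77 FPKM in IC-M, and HT-M was not called against IC-M. In testis-type libraries it stood at 32.03, 29.93 and 32.7 FPKM in IC-F, 40.86, 45.6 and 64.58 FPKM in NC-M, and 106.96, 118.59 and 141.38 FPKM in HT-F, 3 groups that do not overlap. HT-F was higher than IC-F by log2 1.91 ± 0.19 SE (limma adjusted p = 0.000931), which held without any 1 library. It was higher than NC-M by log2 1.28 ± 0.19 SE (limma adjusted p = 0.0163), a call lost without NC-M 2, HT-F 2 or HT-F 3, with adjusted p of up to 0.0751. The heat effects differed by log2 1.74 ± 0.21 SE (limma adjusted p = 7.86e-05).

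The mitochondrial manganese superoxide dismutase gene sod2 was more abundant in ovary-type libraries, at 331.41, 341.16 and 339.38 FPKM in NC-F and 248.45, 293.31 and 255.59 FPKM in HT-M (log2 −0.35 ± 0.08 SE, limma adjusted p = 0.00941). IC-M read 291.82, 286.81 and 261.27 FPKM for sod2 on day 0, and HT-M was not called against it. In testis-type libraries it went from 78.17, 80.83 and 78.9 FPKM in IC-F through 92.04, 93.36 and 153.47 FPKM in NC-M to 177.68, 196.65 and 204.33 FPKM in HT-F. NC-M 3 lay nearer to HT-F than to the other NC-M libraries. HT-F exceeded NC-M by log2 0.81 ± 0.20 SE (limma adjusted p = 0.0443), a call lost without NC-M 1, NC-M 2 or any HT-F library (adjusted p of up to 0.131), with no filter, after median-of-ratios scaling and with a replicate block. Without NC-M 3 its limma adjusted p was 0.000109. HT-F exceeded IC-F by log2 1.27 ± 0.20 SE (limma adjusted p = 0.00502), held without any 1 library. The gap between the gonad types narrowed from log2 −1.61 at 20 °C to −0.46 at 28 °C (limma adjusted p = 1.8e-07 and 0.0146, the second lost without HT-F 1 or HT-M 2 at up to 0.06), with heat effects that differed by log2 1.15 ± 0.22 SE (limma adjusted p = 0.00171). The cytosolic sod1 was not called in any comparison over time or temperature within a type, from 747.9 ± 20.5 FPKM (SD, n = 3) in NC-F to 687 ± 82.3 FPKM in HT-M and from 405 ± 87.6 FPKM in NC-M to 616 ± 56.7 FPKM in HT-F. Its heat effects differed by log2 0.75 ± 0.21 SE (limma adjusted p = 0.0139).

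The glutathione peroxidase gene gpx3 was among the redox genes that differed most between the gonad types. Its product is secreted in mammals, and it read 193.59, 222.41 and 181.95 FPKM in IC-M and 2384.09, 2433.7 and 2307.52 FPKM in IC-F. It read 289.37, 275.59 and 336.35 FPKM in NC-F and 3482.68, 3630.6 and 4011.92 FPKM in NC-M, then 243.56, 145.58 and 197.99 FPKM in HT-M and 4559.11, 3897.91 and 4812.62 FPKM in HT-F. The testis-type mean was 11.9, 12.3 and 22.6 times the ovary-type mean on day 0, at 20 °C and at 28 °C. Of all glutathione peroxidase FPKM, gpx3 made up 96.9% to 98.6% in testis-type libraries and 43.4% to 54.8% in ovary-type libraries. HT-M was below NC-F by log2 −0.64 ± 0.18 SE (limma adjusted p = 0.0169), a call lost without NC-F 3 (adjusted p = 0.0615), while HT-F and NC-M were not separated (log2 0.25 ± 0.19 SE, limma adjusted p = 0.345). The heat effects differed by log2 0.89 ± 0.23 SE (limma adjusted p = 0.0102).

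The general glutathione peroxidase gpx1a was higher in NC-F than in both other ovary-type groups. It stood at 85.17, 102.35 and 77.46 FPKM in IC-M, 226.3, 216.81 and 206.27 FPKM in NC-F, and 90.43, 81.04 and 94.42 FPKM in HT-M. Every NC-F library was above every IC-M and HT-M library, and those of IC-M and HT-M overlapped. NC-F exceeded IC-M by log2 1.29 ± 0.11 SE (limma adjusted p = 9.3e-05), HT-M was below NC-F by log2 −1.28 ± 0.11 SE (limma adjusted p = 8.29e-05), and HT-M against IC-M gave log2 0.01 ± 0.11 SE (limma adjusted p = 0.953). Both calls held without any 1 library, and the pair shares the NC-F libraries. In testis-type libraries gpx1a lay between 6.89 and 26.04 FPKM with no call over time or temperature.

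Among the other peroxidases, gpx7, which works on protein folding in the endoplasmic reticulum, went from 18.74 ± 1.58 FPKM in NC-F to 10.95 ± 1.67 FPKM in HT-M (log2 −0.73 ± 0.14 SE, limma adjusted p = 0.00389). On day 0 gpx7 was at 12.75 ± 1.88 FPKM in IC-M, which overlapped HT-M. The related gpx8 was at 46.2 ± 7.36 FPKM in NC-F and 26.7 ± 7.43 FPKM in HT-M and did not pass (log2 −0.79 ± 0.31 SE, limma adjusted p = 0.061). The phospholipid peroxidase gpx4a, whose mammalian counterpart protects membranes from lipid peroxidation and serves in the sperm midpiece, was not called in any of the 10 comparisons and lay between 21.23 and 48.76 FPKM. gpx1b was not called over time or temperature in either type. Reads from the close copies gpx1a and gpx1b could have been divided between them in the authors' counting, so their separate values are uncertain. The same holds for mgst3a and mgst3b, and for msrb1a and msrb1b. Whether it holds for the related genes txnl4a and txnl4b was not tested.

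Peroxiredoxins, the bulk peroxide scavengers, were lower in heated ovary-type libraries for 4 of 6 members, where 20.0% of all genes were lower. prdx2 read 507.5, 535.61 and 496.25 FPKM in NC-F and 353.33, 336.29 and 345.35 FPKM in HT-M (log2 −0.57 ± 0.06 SE, limma adjusted p = 0.000344). HT-M was also below day 0, where prdx2 read 432.59, 446.25 and 416.86 FPKM (log2 −0.32 ± 0.06 SE, limma adjusted p = 0.00705). The mitochondrial prdx3 went from 439.6 ± 15.8 to 307 ± 14.5 FPKM (log2 −0.52 ± 0.08 SE, limma adjusted p = 0.00176), prdx1 from 429.5 ± 28.6 to 247 ± 50.0 FPKM (limma adjusted p = 0.00917), and prdx4, of the endoplasmic reticulum, from 149 ± 16.6 to 83.5 ± 13.3 FPKM (limma adjusted p = 0.0082). These 4 calls against NC-F held without any 1 library. prdx5 and prdx6 differed by log2 0.02 ± 0.09 SE and −0.02 ± 0.08 SE and were not called. srxn1, the sulfiredoxin that revives over-oxidised peroxiredoxins, was at 14.8 ± 0.196 FPKM in NC-F and 10.9 ± 2.19 FPKM in HT-M (limma adjusted p = 0.0268), a call lost when NC-F 1, NC-F 2, NC-F 3, HT-M 2 or HT-M 3 was left out, with adjusted p of up to 0.0726.

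On the testis side, of the 6 peroxiredoxins and srxn1, 5 were higher in NC-M than in IC-F and 5 in HT-F than in IC-F, where 16.4% and 14.8% of all genes were higher. prdx1 was not called in the first comparison, prdx4 in the second and srxn1 in either. prdx3 stood at 61.63, 56.9 and 62.46 FPKM in IC-F, 170.32, 165.92 and 116.69 FPKM in NC-M, and 153.45, 164.72 and 187.8 FPKM in HT-F. Both later groups lay above day 0 without overlap (NC-M by log2 1.29 ± 0.17 SE and HT-F by log2 1.46 ± 0.17 SE, limma adjusted p = 0.00254 and 0.00183), and they overlapped each other. prdx2 gave log2 0.91 ± 0.14 SE and 1.10 ± 0.14 SE (limma adjusted p = 0.00346 and 0.00211), and prdx5 0.70 ± 0.15 SE and 1.04 ± 0.15 SE (limma adjusted p = 0.0113 and 0.00376); all of these calls held without any 1 library. No peroxiredoxin was called between HT-F and NC-M. Summed over the family with srxn1, the level was 546 to 565 FPKM in IC-F, 873 to 1004 FPKM in NC-M and 1079 to 1174 FPKM in HT-F, and 1414 to 1720 FPKM in IC-M, 1826 to 1898 FPKM in NC-F and 1205 to 1395 FPKM in HT-M. The heat effects of prdx1, prdx2 and prdx3 differed between the types by log2 1.43 ± 0.31, 0.76 ± 0.14 and 0.69 ± 0.19 SE (limma adjusted p = 0.00365, 0.00129 and 0.0137).

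**Figure D4:**
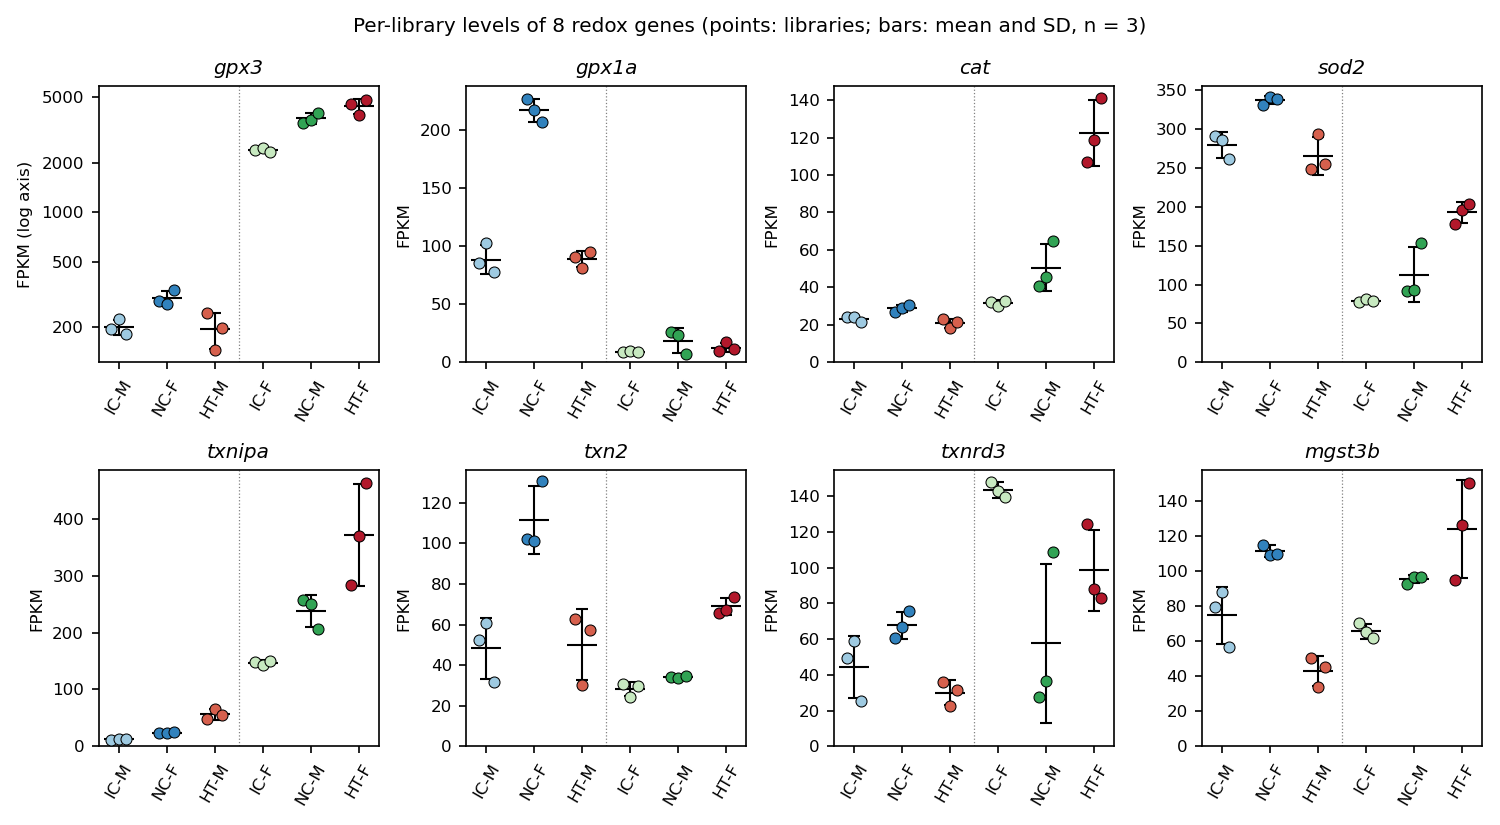
FPKM of 8 redox genes in each library (points) with the mean and SD of each group (n = 3), ovary-type groups left of the dotted line and testis-type groups right; the axis of gpx3 is logarithmic. gpx1a, txn2 and mgst3b peak in NC-F among ovary-type groups, cat and sod2 peak in HT-F among testis-type groups, and txnipa is highest in the HT group of each type.

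Of the 4 thioredoxin, reductase and inhibitor genes tested, 3 were lower in HT-M than in NC-F and the inhibitor was higher. Of all genes, 20.0% were lower and 28.7% higher. No gene named txn was among the 52 symbols matched, so these genes do not stand for the whole thioredoxin branch. The mitochondrial thioredoxin txn2 read 52.56, 60.5 and 31.54 FPKM in IC-M, 102.15, 101.33 and 130.81 FPKM in NC-F, and 62.76, 30.37 and 57.15 FPKM in HT-M. IC-M 3 and HT-M 2 were the low libraries of their groups, and NC-F lay above both groups without overlap. HT-M was below NC-F by log2 −1.19 ± 0.31 SE (limma adjusted p = 0.0127), held without any 1 library, and NC-F above IC-M by log2 1.23 ± 0.31 SE (limma adjusted p = 0.0212), lost without any of NC-F 1, NC-F 2 and NC-F 3 (adjusted p of up to 0.0784).

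In testis-type libraries txn2 read 30.87, 24.15 and 29.78 FPKM in IC-F, 34.22, 33.74 and 34.87 FPKM in NC-M, and 65.79, 67.13 and 73.75 FPKM in HT-F. HT-F lay apart from both other groups, above IC-F by log2 1.26 ± 0.13 SE (limma adjusted p = 0.00111, held without any 1 library) and above NC-M by log2 0.98 ± 0.13 SE (limma adjusted p = 0.0115, lost without HT-F 2 or HT-F 3 at up to 0.0703). The 2 heat effects differed by log2 2.18 ± 0.35 SE (limma adjusted p = 0.000603), and the ovary-type excess of txn2, log2 −1.66 ± 0.25 SE at 20 °C, became 0.52 ± 0.25 SE at 28 °C (limma adjusted p = 2.12e-05 and 0.0729).

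The inhibitor gene txnipa encodes a thioredoxin-binding arrestin that also limits glucose uptake in mammals. In HT-M against NC-F txnipa went the other way from txn2. It read 11.75, 13.55 and 12.02 FPKM in IC-M, 22.56, 23.31 and 24.86 FPKM in NC-F, and 47.35, 65.92 and 55.25 FPKM in HT-M. The 3 groups formed separate steps, with HT-M above NC-F by log2 1.21 ± 0.12 SE, NC-F above IC-M by log2 0.87 ± 0.12 SE and HT-M above IC-M by log2 2.08 ± 0.12 SE (limma adjusted p = 0.000206, 0.00174 and 8.61e-06). These calls held without any 1 library. In testis-type libraries it read 148.33, 142.31 and 150.89 FPKM in IC-F, 256.68, 250.92 and 206.02 FPKM in NC-M, and 283.74, 369.96 and 463.63 FPKM in HT-F, also without overlap. HT-F exceeded IC-F by log2 1.31 ± 0.19 SE (limma adjusted p = 0.00394, held without any 1 library), but HT-F against NC-M missed the threshold (log2 0.62 ± 0.19 SE, limma adjusted p = 0.0677), as did the difference of the heat effects (log2 −0.58 ± 0.22 SE, limma adjusted p = 0.0584).

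The reductase gene txnrd3, which in mammals encodes a thioredoxin and glutathione reductase prominent in spermatids, read 60.84, 66.71 and 75.53 FPKM in NC-F and 36.12, 22.7 and 31.53 FPKM in HT-M (log2 −1.16 ± 0.29 SE, limma adjusted p = 0.0116). In testis-type libraries it read 148.05, 143.05 and 139.65 FPKM in IC-F, 27.8, 36.65 and 108.9 FPKM in NC-M, and 124.55, 87.9 and 83.17 FPKM in HT-F. NC-M 3 lay within the range of HT-F and far above the other NC-M libraries. NC-M was below IC-F by log2 −1.55 ± 0.44 SE (limma adjusted p = 0.0277), a call lost when any IC-F library, NC-M 1 or NC-M 2 was left out, at up to 0.0895. Like txnrd3, the sperm and flagellum genes were higher in NC-M 3, at 1749 FPKM summed, than in NC-M 1 and NC-M 2, at 1109 and 969 FPKM, and their part in the txnrd3 values was not tested. The mitochondrial reductase gene txnrd2.2 was at 4.74 ± 1.34 FPKM in NC-F and 1.79 ± 0.575 FPKM in HT-M (limma adjusted p = 0.0208, lost without NC-F 3, HT-M 2 or HT-M 3 at up to 0.0753).

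Of 10 thioredoxin-domain and thioredoxin-like genes, 6 were lower and 1 higher in HT-M than in NC-F, where 20.0% of all genes were lower and 28.7% higher. txnl4b, a relative of a spliceosome component, read 79.18, 91.72 and 78.86 FPKM in NC-F and 37.09, 31.6 and 38.65 FPKM in HT-M (log2 −1.20 ± 0.21 SE, limma adjusted p = 0.0025). txndc5, a protein disulfide isomerase of the endoplasmic reticulum, read 47.68, 42.9 and 62.76 FPKM in NC-F and 25.82, 26.72 and 26.01 FPKM in HT-M (log2 −0.92 ± 0.18 SE, limma adjusted p = 0.00367). On day 0 txndc5 read 27.87, 31.06 and 20.16 FPKM in IC-M, which overlapped HT-M and lay below NC-F. txndc12, also of the endoplasmic reticulum, was at 51.4 ± 6.97 and 36.85 ± 3.13 FPKM (limma adjusted p = 0.0108). These 3 calls held without any 1 library. The calls of txndc9, txndc17 and txnl4a, which were lower, and of txndc15, which was higher, had limma adjusted p of 0.0292, 0.0149, 0.0241 and 0.0347. Those of txndc9 and txnl4a were lost without any 1 NC-F library, HT-M 2 or HT-M 3 (adjusted p of up to 0.0941 and 0.0774), that of txndc17 without NC-F 2 or HT-M 2 (up to 0.0525), and that of txndc15 without NC-F 1, NC-F 2, HT-M 1 or HT-M 3 (up to 0.108).

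On the testis side txnl4b read 23.52, 24.86 and 21.54 FPKM in IC-F, 6.39, 4.42 and 11.94 FPKM in NC-M, and 16.41, 17.59 and 14.34 FPKM in HT-F. NC-M lay below both other groups, by log2 −1.60 ± 0.29 SE against IC-F (limma adjusted p = 0.00595, held without any 1 library), and HT-F above NC-M by log2 1.09 ± 0.29 SE (limma adjusted p = 0.0483, lost without NC-M 1, NC-M 2 or any HT-F library at up to 0.141). txndc5 was also lowest in NC-M, at 16.9 ± 0.708 FPKM in IC-F, 9.47 ± 4.35 FPKM in NC-M and 19.4 ± 2.30 FPKM in HT-F, with NC-M 3 at 14.48 FPKM and the other NC-M libraries at 6.68 and 7.25 FPKM. Its calls, NC-M below IC-F and HT-F above NC-M (limma adjusted p = 0.035 and 0.0437), were lost without NC-M 1 or NC-M 2 and without any IC-F or any HT-F library, at up to 0.108 and 0.125. The heat effects of txnl4b and txndc5 differed between the types by log2 2.28 ± 0.37 and 1.96 ± 0.32 SE (limma adjusted p = 0.00062 and 0.000694).

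Among glutaredoxins, glrx5, which serves iron-sulfur cluster assembly in mitochondria, read 118.81, 121.99 and 116.32 FPKM in NC-F and 67.19, 53.92 and 64.36 FPKM in HT-M (log2 −0.94 ± 0.13 SE, limma adjusted p = 0.000723). It was also below day 0 in HT-M (IC-M read 104.93, 108.51 and 81.36 FPKM; log2 −0.65 ± 0.13 SE, limma adjusted p = 0.00557). glrx3, a cytosolic iron-sulfur carrier, went from 57.0 ± 2.53 to 46.2 ± 1.09 FPKM (log2 −0.30 ± 0.07 SE, limma adjusted p = 0.00976), and in testis-type libraries from 13.4 ± 0.213 FPKM in IC-F to 28.1 ± 2.03 FPKM in HT-F (log2 1.02 ± 0.17 SE, limma adjusted p = 0.00572). All 4 calls held without any 1 library. The cytosolic glrx, the most abundant of the family, stood at 257.9 ± 21.8 FPKM in IC-M, 270.4 ± 17.3 FPKM in NC-F and 262 ± 14.7 FPKM in HT-M and was not called among them. In testis-type libraries glrx stood at 57.8 ± 3.94 FPKM in IC-F, 117 ± 31.3 FPKM in NC-M and 125 ± 21.8 FPKM in HT-F. NC-M was called higher than IC-F (log2 0.97), where 16.4% of all genes were higher, and NC-M and HT-F overlapped.

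The 4 genes that make and recycle glutathione were not called between 28 °C and 20 °C in either type. gclc and gclm, the subunits of the rate-limiting ligase, lay between 5.82 and 14.44 FPKM in all 18 libraries. gss read 4.68, 4.08 and 9.44 FPKM in IC-M, 5.84, 4.11 and 5.78 FPKM in NC-F and 6.95, 9.41 and 8.56 FPKM in HT-M, and 22.05 to 37.86 FPKM in the 9 testis-type libraries. Among the 18 within-type results for gclc, gclm and gss over time and temperature none passed, and gsr passed once, higher in HT-F than in IC-F at 30.9 ± 5.02 against 16.5 ± 0.580 FPKM (log2 0.86 ± 0.18 SE, limma adjusted p = 0.0125, lost without IC-F 2, IC-F 3 or HT-F 3 at up to 0.0578). At an unadjusted limma p under 0.05, 2 of the 8 heat results passed.

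Of 6 glutathione S-transferases, 2 were lower and none higher in HT-M than in NC-F, where 20.0% of all genes were lower and 28.7% higher. mgst3b, a microsomal member, read 115.05, 108.97 and 109.91 FPKM in NC-F and 50.61, 33.56 and 45.04 FPKM in HT-M (log2 −1.37 ± 0.19 SE, limma adjusted p = 0.000762), the largest fall of a redox gene in that comparison on the log2(FPKM + 1) scale. By the ratio of group means it was 2.58 times lower, less than msrb3 (2.82 times) and txnrd2.2 (2.64 times). gsta.1, an alpha-class member, read 121.66, 119.35 and 106.98 FPKM in NC-F and 63.17, 47.23 and 60.93 FPKM in HT-M (log2 −1.02 ± 0.14 SE, limma adjusted p = 0.000851) and was also lower in HT-M than at day 0 (log2 −0.93 ± 0.14 SE, limma adjusted p = 0.0017). Both calls against NC-F and that against day 0 held without any 1 library. The close copy mgst3a lay between 165.18 and 181.89 FPKM in the 9 ovary-type libraries.

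In testis-type libraries 5 of 6 glutathione S-transferases were higher in NC-M than in IC-F, and 5 were higher in HT-F than in IC-F, where 16.4% and 14.8% of all genes were higher. mgst3a read 76.91, 72.56 and 76.82 FPKM in IC-F, 141.57, 128.3 and 162.36 FPKM in NC-M, and 188.19, 174.75 and 197.03 FPKM in HT-F, with no overlap among the groups. It exceeded day 0 by log2 0.92 ± 0.13 SE in NC-M and 1.29 ± 0.13 SE in HT-F (limma adjusted p = 0.00311 and 0.00103, both held without any 1 library). gstt2 went from 30.4 ± 2.05 to 67.9 ± 7.43 FPKM in NC-M (log2 1.13 ± 0.16 SE, limma adjusted p = 0.00318, held without any 1 library). None of the 6 was called between HT-F and NC-M, with 0 at an unadjusted limma p under 0.05 lower and 1 higher.

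Methionine sulfoxide reductases were scarce. msrb3, found in the endoplasmic reticulum and mitochondria of mammals, read 4.39, 4.07 and 4.31 FPKM in IC-M, 9.38, 11.09 and 12.15 FPKM in NC-F, and 5.03, 3.47 and 3.08 FPKM in HT-M. NC-F lay above both other groups, by log2 1.17 ± 0.16 SE over IC-M and with HT-M lower by log2 −1.30 ± 0.16 SE (limma adjusted p = 0.00139 and 0.000493, both held without any 1 library). On the testis side it read 5.43, 4.63 and 5.66 FPKM in IC-F, 19.86, 18.15 and 13.84 FPKM in NC-M, and 13.19, 16.32 and 15.97 FPKM in HT-F. Both 28-day groups exceeded day 0 (log2 1.54 ± 0.17 SE and 1.37 ± 0.17 SE, limma adjusted p = 0.0014 and 0.00211) and overlapped each other. msrb1a was at 0.1, 0.84 and 0 FPKM in IC-M and 5.24, 6.21 and 5.23 FPKM in IC-F. An exact 0 in this table can be a failed estimate.

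The classic NRF2 targets haem oxygenase and quinone reductase were among the least abundant redox genes. nqo1 was listed at 0, 0 and 0.3 FPKM in IC-M, 0.05, 0.11 and 0 FPKM in NC-F and 0.12, 0.72 and 0.21 FPKM in HT-M. In testis-type libraries it read 1.69, 2.53 and 1.22 FPKM in IC-F, 1.09, 1.12 and 2.61 FPKM in NC-M, and 6.15, 2.62 and 1.51 FPKM in HT-F, groups that overlapped. hmox1a stayed below 1 FPKM in every ovary-type library and stood at 1.33, 1.29 and 1.78 FPKM in IC-F, 4.87, 3.67 and 3.18 FPKM in NC-M, and 12.4, 3.29 and 4.25 FPKM in HT-F. HT-F 1 alone was above 5 FPKM. The one call, HT-F over IC-F (log2 1.45 ± 0.39 SE, limma adjusted p = 0.0319), was lost without any IC-F library or HT-F 3 at up to 0.104, and the difference was 0.95 without HT-F 1. HT-F 1 also had the highest summed level of 5 liver genes, 50.7 FPKM against 11.7 and 7.23 FPKM in HT-F 2 and HT-F 3, and their part in the haem oxygenase value was not tested.

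Grouped by the compartment their products are known to occupy, 5 of the 6 mitochondrial genes tested (sod2, prdx3, txn2, txnrd2.2 and glrx5) were lower in HT-M than in NC-F, with glrx2 not called. The same 5 had heat effects that differed between the types. So had 3 of 10 cytosolic genes, 3 of 7 of the endoplasmic reticulum, 1 peroxisomal, 1 secreted and 9 of 25 other genes. Of all genes, 16.4% were above 0 and 16.3% below in that contrast. Of 7 genes of the endoplasmic reticulum 4 were lower in HT-M (gpx7, prdx4, txndc5 and txndc12), and of 9 cytosolic genes 4 were lower (prdx1, prdx2, srxn1 and txndc17). Each gene was put in a single compartment, and the shares depend on that choice. prdx5, which was not called, and msrb3, which was lower, were not counted as mitochondrial. Of the genes lower in HT-M, glrx3 was not counted as cytosolic, nor msrb3 and mgst3b as genes of the endoplasmic reticulum. The call of txnrd2.2 was lost when certain single libraries were left out. The shares are descriptions. Those of HT-M against NC-F are read beside the 20.0% of all genes that were lower in that comparison.

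Genes that feed or steer these enzymes were taken from 8 lists with 132 genes in the table. Between NC-F and HT-M, 17 were higher and 26 lower of 99 tested, with a median of −0.12 on the log2 scale, where 28.7% of all genes were higher and 20.0% lower with a median of 0.07. These shares are the background of each list below. Against day 0, HT-M was higher than IC-M for 13 of the 99 and lower for 6 (16.1% and 8.44% of all genes). The gene for NRF2 itself, nfe2l2a, read 1.84, 2.38 and 2.44 FPKM in NC-F and 4.45, 5.36 and 4.22 FPKM in HT-M (log2 0.82 ± 0.13 SE, limma adjusted p = 0.00184). keap1a, which encodes its cytoplasmic inhibitor, read 21.52, 25.86 and 24.7 FPKM in NC-F and 34.54, 43.03 and 42.14 FPKM in HT-M (log2 0.71 ± 0.18 SE, limma adjusted p = 0.0115). Day-0 values of keap1a in IC-M, 30.81, 27.2 and 44.56 FPKM, overlapped HT-M. Both genes were higher in HT-M than in NC-F without overlap and held without any 1 library. Of 8 genes tested on the list of NRF2 and its regulators they were the 2 called, a share below that of all genes.

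On the NADPH supply list, 2 of 14 genes were higher and 5 lower in HT-M than in NC-F (28.7% and 20.0% of all genes). taldo1, the transaldolase of the pentose phosphate pathway, read 212.86, 220.38 and 203.25 FPKM in NC-F and 388.7, 460.1 and 398.9 FPKM in HT-M (log2 0.96 ± 0.09 SE, limma adjusted p = 0.000101). The mitochondrial NAD kinase nadk2 was also higher (15.5 ± 1.06 against 34.7 ± 3.54 FPKM, limma adjusted p = 0.00173). Day-0 values of nadk2 in IC-M, 25.57, 19.38 and 33.83 FPKM, overlapped HT-M. The mitochondrial isocitrate dehydrogenase idh2 was lower (199 ± 2.86 against 148 ± 1.73 FPKM, limma adjusted p = 0.00253). On the selenoprotein list, where 1 of 12 was higher and 5 lower against the same background, selenof of the endoplasmic reticulum read 102.91, 126.68 and 142.7 FPKM in NC-F and 43.41, 37.96 and 40.98 FPKM in HT-M (log2 −1.57 ± 0.31 SE, limma adjusted p = 0.00425). Day-0 values of selenof in IC-M were 75.92, 109.07 and 39.21 FPKM, with IC-M 3 inside the range of HT-M. Among oxidant producers, 2 of 8 were higher and 4 lower against that background, and ncf1, a subunit of the phagocyte NADPH oxidase, read 0.67, 0.5 and 0.48 FPKM in NC-F and 4.33, 5.33 and 4.15 FPKM in HT-M (log2 1.85 ± 0.13 SE, limma adjusted p = 2.91e-05), beside the higher macrophage sum given above, which rests on few genes. ncf4, another subunit of that oxidase and the more abundant of the pair, was lower, at 13.74, 14.69 and 11.38 FPKM in NC-F and 5.78, 5.25 and 4.97 FPKM in HT-M (log2 −1.17 ± 0.17 SE, limma adjusted p = 0.00117), also without overlap and held without any 1 library.

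Between NC-M and HT-F, 15 of 111 list genes were higher and 2 lower, with a median of 0.28 on the log2 scale, where 6.17% of all genes were higher and 4.50% lower with a median of 0.09. Of 14 NADPH supply genes, 5 were higher and none lower. The transketolase gene tktb went from 87.4 ± 5.69 to 138 ± 7.27 FPKM (log2 0.65 ± 0.12 SE, limma adjusted p = 0.024), the malic enzyme gene me1 from 10.9 ± 2.33 to 21.4 ± 2.79 FPKM (limma adjusted p = 0.026), and pgls, the lactonase of the pentose phosphate pathway, from 17.1 ± 4.81 to 32.6 ± 1.76 FPKM (limma adjusted p = 0.031). maff, a small partner of NRF2 on DNA, read 1.74, 2.51 and 1.65 FPKM in NC-M and 4.89, 5.7 and 6.25 FPKM in HT-F (log2 1.16 ± 0.17 SE, limma adjusted p = 0.0162). Each of these 4 calls was lost without HT-F 2 and without HT-F 3, that of tktb also without NC-M 2, that of me1 without NC-M 1, and that of pgls without NC-M 1, NC-M 2 or HT-F 1, at adjusted p of up to 0.107.

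The same 3 NADPH genes were lower in HT-M than in NC-F, with tktb at log2 −0.38 ± 0.09 SE, me1 at −0.73 ± 0.15 SE and pgls at −1.17 ± 0.26 SE (limma adjusted p = 0.011, 0.00455 and 0.0068). Their heat effects differed between the types by log2 1.03 ± 0.14, 1.65 ± 0.23 and 2.09 ± 0.33 SE (limma adjusted p = 0.000164, 0.000182 and 0.000549), which held without any 1 library. Over all 113 list genes tested, the difference of the heat effects was above 0 for 36 and below 0 for 10, with a median of 0.46, where 16.4% of all genes were above, 16.3% below and the median was −0.01.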

How the data were processed

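Total RNA of 18 gonad samples was sequenced by the standard protocol of the platform, per the labels' protocols. The deposited table gives FPKM with 2 decimals per gene and library, per the file headers. Which aligner, counter and genome build were used is not given in the sources used here. FPKM keep no counts, so depth is unknown and no interval for counting error is given. FPKM summed to between 745181 and 1020595 per library, and 15152 to 21638 genes reached 1 FPKM. All 52 symbols occur in the RefSeq gene table.

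Tests were run on log2(FPKM + 1) with limma 3.58.1 under R 4.3.3 (group means, eBayes with trend), on genes with at least 1 FPKM in at least 3 of the libraries fitted: 9 for comparisons within a gonad type, 18 for those between types. Calls were made under 0.05 after Benjamini-Hochberg adjustment over all genes fitted. A log2 difference on this scale understates the change of low genes. On simulated data for HT-M against NC-F (17026 genes), 72% of changes of log2 1 and 96% of log2 2 were recovered, and for HT-F against NC-M (22791 genes) 40% and 76%. The simulation changed 100 genes by each amount, all of higher level, and left the others unchanged. Far more genes were called in the real data, so these rates need not hold for the reported tests. Alternatives were a pseudocount of 0.1 or 5, no filter, a filter at 5 FPKM, median-of-ratios scaling, a replicate block, all 18 libraries in the fit, and leaving out each library.

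The genes, the lists, the pairing of groups by gonad type and the comparisons were chosen with earlier results of these data known. For tests, the rule named up to 8 called genes per comparison with the largest change (a mean of at least 5 FPKM and no overlap), the leading gene of each subfamily in each type, a set list of core enzymes, and up to 3 called genes per further list. txndc12, txndc9, txndc15, txndc17, glrx3, gpx7, gpx8, gstt2, msrb1a, prdx4 and the within-type results that fall outside this rule were named after their values were seen. No sequences were used here. Plots used matplotlib 3.10.9 in Python 3.11.15.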

Additional observations from a re-analysis of the deposited data

Results flagged for a closer look

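The difference between the heat effect in testis-type libraries (HT-F minus NC-M) and that in ovary-type libraries (HT-M minus NC-F) was tested for each redox gene with limma over all 25184 genes fitted. It passed the adjusted threshold for 22 of 50 genes, each with a heat effect further toward higher levels in testis-type libraries, beside 16.4% of all genes above 0 and 16.3% below.

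The largest differences on the log2 scale were those of txnl4b (2.28), the mitochondrial thioredoxin gene txn2 (2.18), the reductase gene txnrd3 (2.15) and txndc5 (1.96). Catalase (cat) gave 1.74, mgst3b 1.72, txndc9 1.59 and the peroxiredoxin gene prdx1 1.43. Iron-sulfur glutaredoxin glrx5 and txndc12 each gave 1.27, txnl4a 1.20, the mitochondrial sod2 1.15 and msrb3 1.13. The transferase gene gsta.1 and the reductase gene txnrd2.2 each gave 1.01, glrx3 0.91 and gpx3 0.89. Smaller values were those of prdx2 and txndc11, each 0.76, sod1 0.75, prdx3 0.69 and mgst3a 0.36. The calls of txnrd2.2, txndc11 and mgst3a were lost when certain single libraries were left out, with adjusted p of up to 0.102, 0.0585 and 0.112, and the other 19 held. Meiosis genes summed to 356, 546 and 1290 FPKM in NC-M 1, 2 and 3, and the sums of endothelial, blood and macrophage genes were higher in HT-M than in NC-F. Their part in these differences was not tested.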

How the results depend on the processing

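Over 241 called results of single redox genes, 3249 values under the alternatives kept their direction: 2907 stayed called, 342 were no longer called and 0 reversed. Counts of called redox genes stayed within 1.5 times the reported count under every alternative for HT-M against NC-F, the 3 comparisons between types and the difference of the heat effects. For NC-F against IC-M, 13 genes became 7 with a replicate block and 8 with all 18 libraries in the fit. For HT-F against NC-M, 5 became 2 with no filter, 9 with a filter at 5 FPKM, 3 after median-of-ratios scaling, 1 with a replicate block and 17 with all 18 libraries in the fit. All genes moved as well. For NC-F against IC-M, 1373 were higher and 1613 lower with the block, and 1347 and 1468 of 25184 with all libraries. For HT-F against NC-M they began at 1407 higher and 1025 lower of 22791. They became 621 and 520 of 36211 with no filter and 1583 and 760 of 14315 at 5 FPKM. Scaling gave 1188 and 1049, the block 62 and 67, and all libraries 5110 and 3458 of 25184. The cause of these shifts was not tested. Leaving out 1 library gave 5 to 15 genes for NC-F against IC-M, 7 to 19 for HT-M against IC-M, 0 to 21 for HT-F against NC-M, 10 to 33 for NC-M against IC-F and 13 to 20 for HT-F against IC-F (13, 11, 5, 23 and 23 with all libraries). Calls among all genes also moved. For HT-F against NC-M they ran from 22 higher and 40 lower (without HT-F 3) to 6400 and 4293 (without NC-M 3). Median-of-ratios scaling moved the median of all genes by −0.10, −0.12 and −0.13 in HT-M against IC-M, NC-M against IC-F and HT-F against IC-F. Same-numbered libraries of different groups did not deviate together (correlations of their deviations between −0.24 and 0.24), so the numbers were not taken as pairs. What depth limits cannot be stated, since FPKM keep no counts.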
